A study of Mus musculus with 18 samples.

Results

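Mitotic progenitors without lineage markers were the dividing cells of a bone marrow sort that stayed within count limits for 7 genes that mark committed blood lineages. Single-cell libraries held lineage-negative, cKit+ (LK) cells of the bone marrow of female C57BL/6 mice, a sort that holds stem cells and early progenitors of the blood. Mice 1, 3 and 5 were young (8 weeks) and mice 2, 4 and 6 were aged (72 weeks), the labels name no treatment, and each mouse gave 1 library of 3′ ends. Every RNA molecule carried a unique molecular identifier (UMI), so a UMI count is a count of captured molecules. The cells were chosen by their measured counts. A cell was taken when it had 8 or more UMIs summed over Mki67, Top2a, Ube2c, Nusap1, Birc5, Tpx2, Cdca8 and Prc1, at most 1 UMI of Pf4, fewer than 100 UMIs of Igkc, and no UMI of Klf1, Ms4a2, Cebpe, Csf1r or Epx. This left 568 of 8436 LK cells (6.73%), named mitotic marker-free cells here, with 130, 68 and 71 from young mice 1, 3 and 5 and 120, 149 and 30 from aged mice 2, 4 and 6. The Igkc limit is loose, and 371 of the 568 cells had a UMI of it. Mitotic marker-free cells made up 568 of 1727 mitotic cells (32.9%) and 568 of 3783 cells inside the 7 lineage limits. The same limits removed 1159 mitotic cells, of which 570 had a UMI of the erythroid factor Klf1, 275 of the mast cell and basophil receptor chain Ms4a2, 242 of the granulocyte factor Cebpe and 167 of the monocyte receptor Csf1r. A count threshold without regard to depth also takes cells with more RNA captured. The median mitotic marker-free cell had 6660.0 to 11170.0 UMIs in a mouse, 1.79 to 2.32 times that of the other marker-free cells of that mouse. Just inside the threshold 77 marker-free cells had 8 mitotic UMIs, and just outside it 85 had 7.

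A dividing cell copies its DNA, condenses and aligns its chromosomes, and separates them on a spindle of microtubules before it splits. The genes for the later steps are transcribed together, from late S phase to mitosis, and the anaphase-promoting complex then destroys many of their proteins. In bone marrow the stem cells divide rarely, and most divisions are those of the progenitors that they feed.

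Libraries 1 and 2 stood apart from libraries 3 to 6, and the labels name no batch. In mitotic marker-free cells the 7 listed genes of macrophages and dendritic cells summed to 952 CPM in young mouse 1 and 3361 CPM in aged mouse 2, and to 46.0 to 109.8 CPM in mice 3 to 6. CPM are UMIs of a gene scaled to a total of 1000000 UMIs over these cells in a mouse. The MHC class II chain gene H2-Aa was at 205 and 748 CPM in mice 1 and 2 and at 1.53 to 28.2 CPM in the others. Cells with 10 or more UMIs of the list numbered 5 in mouse 1, 15 in mouse 2, 1 in mouse 4 and none elsewhere. The immediate early transcription factor Fos was lowest in the same pair, at 167 and 74.3 CPM, and lay between 353 and 686 CPM in mice 3 to 6. Each age held 1 of these 2 libraries. The cells of mouse 6 gave 212608 UMIs and those of the other mice 572044 to 1675780. No barcode was shared by mitotic marker-free cells of different libraries, and 5 of these cells had a barcode that occurs in another library.

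The 8 genes that chose the cells serve different steps of division. Mki67 coats mitotic chromosomes, Top2a untangles DNA, and Birc5 and Cdca8 belong to the chromosomal passenger complex. Ube2c loads ubiquitin for the anaphase-promoting complex, and Nusap1, Tpx2 and Prc1 bind spindle microtubules. Since these counts defined the cells, their levels are a description, and no result below rests on a test of them. Mki67 lay at 174, 119 and 141 CPM in young mice 1, 3 and 5 and at 172, 135 and 183 CPM in aged mice 2, 4 and 6. The ages overlapped, with the lowest value in a young mouse and the highest in an aged one. Top2a lay at 340, 322 and 342 CPM in the young and at 399, 360 and 564 CPM in the aged mice. Here every aged mouse was above every young one. Ube2c, at 348, 364 and 277 CPM against 431, 229 and 287 CPM, held both its extremes in aged mice. The other marker-free cells held 25.7 ± 9.33 CPM of Mki67 (SD, n = 6 mice), 94.0 ± 30.5 CPM of Top2a and 25.4 ± 13.4 CPM of Ube2c, and no value of theirs reached the lowest of the mitotic marker-free cells.

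**Figure D1:**
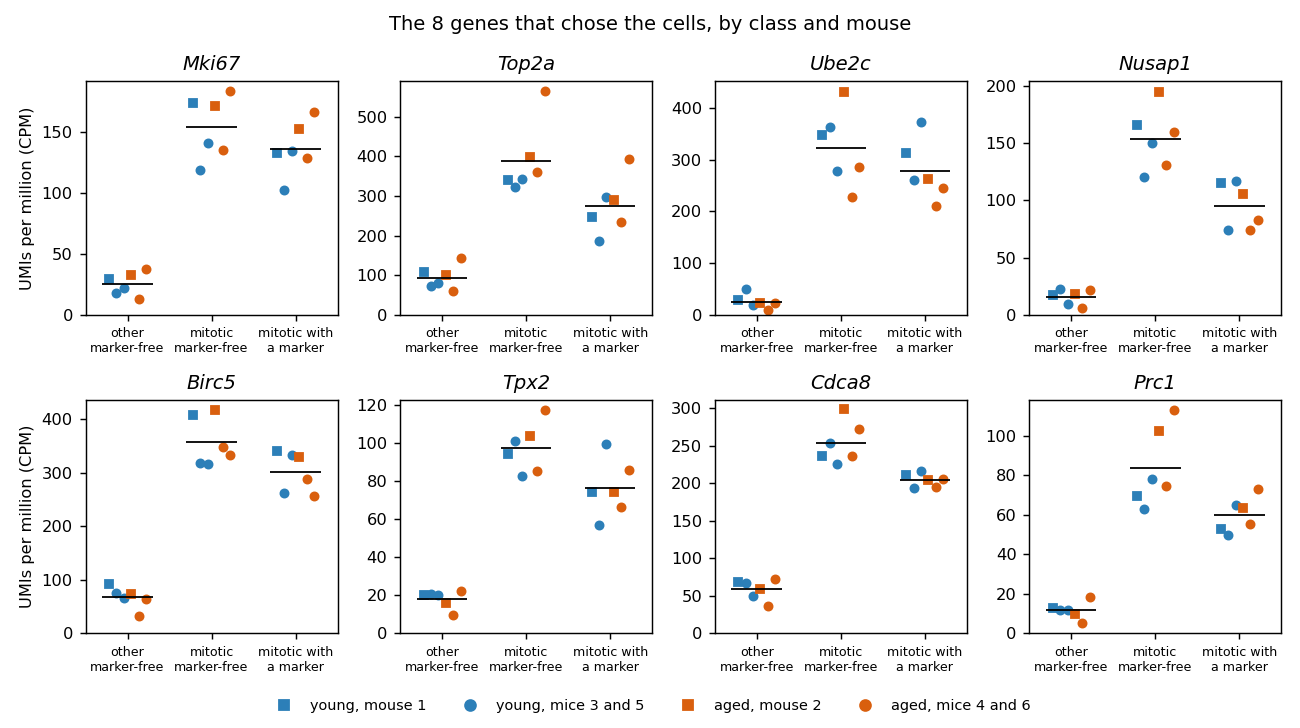
CPM (vertical axis, from 0) of the 8 mitotic genes of the rule in other marker-free cells, mitotic marker-free cells and mitotic cells with a lineage marker. Each point is a mouse (blue young, orange aged, squares mice 1 and 2) and each line is the mean of 6 mice. The middle column lies above the left one in every panel, which the rule sets, and near or above the right one.

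Promoters of these genes are shown because genes of late division are known to share 2 short elements, the cell cycle genes homology region (TTTGAA) and the CCAAT box. The 80 bases before the start site are given for Top2a, Ube2c, Cdk1 and Cdc20, and bases 150 to 71 before it for Mki67. They are RefSeq sequences on GRCm38.p6, 5′ to 3′ on the strand of the gene, and capitals mark TTTGAA or CCAAT on either strand (TTCAAA or ATTGG when reversed).
Mki67, chr7:135716450-135716529, minus strand: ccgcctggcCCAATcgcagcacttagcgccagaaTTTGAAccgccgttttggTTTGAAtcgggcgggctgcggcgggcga
Top2a, chr11:99024190-99024269, minus strand: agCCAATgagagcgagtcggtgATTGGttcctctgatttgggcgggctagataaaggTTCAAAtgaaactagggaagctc
Ube2c, chr2:164769849-164769928, plus strand: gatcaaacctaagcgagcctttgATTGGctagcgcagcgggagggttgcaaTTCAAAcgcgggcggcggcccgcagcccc
Cdk1, chr10:69352913-69352992, minus strand: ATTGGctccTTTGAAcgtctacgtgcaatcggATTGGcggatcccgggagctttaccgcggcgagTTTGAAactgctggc
Cdc20, chr4:118437344-118437423, minus strand: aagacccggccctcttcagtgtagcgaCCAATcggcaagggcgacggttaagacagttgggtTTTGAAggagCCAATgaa

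Of the 8 genes of the rule, 7 had a promoter window in the RefSeq table, from 250 bases before to 50 bases after the start. Both elements occurred in 5 of these 7, in Mki67, Top2a, Ube2c, Cdca8 and Prc1, and neither in Nusap1 or Birc5. Over all 27025 genes with a window, 20.2% held TTTGAA, 41.1% held CCAAT and 7.97% held both. Over the rule and 8 lists of division genes joined, 100 of 119 genes matched, of which 54.0% held TTTGAA and 40.0% both. Among kinesins of the spindle the motif TTTGAA was in 10 of 12 genes. Among genes of DNA replication it was in 4 of 28 (14.3%), and CCAAT in 18 of 28 (64.3%). A match is a run of letters and was not tested as a site.

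Among genes outside the rule, the lists of spindle kinesins and mitotic kinases had the largest ratios to the other marker-free cells of the same mouse, and that of the anaphase-promoting complex and mitotic exit was at 1.48 times. These ratios share the cells with the rule and are given with no test. Of 2698 genes at 50 CPM or more in either class, 11.4% were higher in 6 of 6 mice and 8.3% lower in 6 of 6. The median log2 ratio was -0.00. The largest ratio belonged to Pimreg, a regulator of the metaphase to anaphase step, at 75.8 ± 28.8 CPM (SD, n = 6) against 9.34 ± 3.37 CPM, a log2 ratio of 2.88 with 1 CPM added to both. Hmmr, a spindle protein, followed at 2.66, and the mitotic kinases Plk1 and Aurka at 2.55 and 2.46. Cenpf of the kinetochore (2.41), the mitotic cyclin Ccnb1 (2.28), the replication-linked histone gene Hist1h2ap (2.20), the phosphatase gene Cdkn3 (2.16) and Cdc20 (2.16) came next. All of these were higher in every mouse, as the rule for naming them requires.

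By list, 5 of 5 mitotic kinases, 4 of 4 spindle kinesins and 8 of 10 centromere and kinetochore genes at 50 CPM were higher in 6 of 6 mice. Summed levels were 3.44 times those of the other marker-free cells for the kinases (2.72 to 5.00 times in single mice), 3.91 times for the kinesins (2.72 to 5.51) and 2.43 times for the centromere list (2.15 to 3.15). The chromosome condensing subunits Smc4 and Smc2 had log2 ratios of 1.10 and 1.02, and 6 of 9 genes of condensin and cohesin were higher in 6 of 6 mice. Tubulins and stathmin, the building blocks of microtubules and their regulator, were higher in 6 of 6 genes and 1.73 times in sum. Of the list of the anaphase-promoting complex and mitotic exit, 7 of 9 genes at 50 CPM were higher in 6 of 6 mice. The activator Cdc20 lay at 191, 138 and 166 CPM in young mice, against 229, 129 and 169 CPM in aged ones. The subunits Anapc13 and Cdc26 were higher in only 3 of 6 mice, at log2 ratios of 0.05 and -0.04. The early mitotic inhibitor Fbxo5 had a ratio of 1.64 and the ubiquitin enzyme Ube2s 1.10.

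The mitotic cyclins Ccnb1, Ccnb2 and Ccna2 had log2 ratios of 2.28, 1.87 and 1.96, and their kinase Cdk1 1.46. The G1 cyclin Ccnd2 was lower in 6 of 6 mice, at 134 ± 9.52 CPM against 215 CPM in the other marker-free cells (SD, n = 6). Ccnd3 and the G1 kinases Cdk4 and Cdk6 had ratios of 0.07, 0.07 and -0.01, and of the CDK inhibitors Cdkn2d was higher (1.21) and Cdkn1a lower (-0.52) in 6 of 6 mice. Replication genes lay on both sides. Of 26 at 50 CPM, 4 were higher in 6 of 6 mice, namely Pclaf (1.08), Tk1 (0.85), Tyms (0.68) and Rrm1 (0.61), which serve the replication fork and the supply of nucleotides. A further 5 were lower in 6 of 6 mice, the uracil glycosylase Ung (-2.14), the histone chaperone subunit Chaf1b (-0.68) and the helicase subunits Mcm4 (-0.67), Mcm2 (-0.53) and Mcm6 (-0.39). Ung lay at 26.1, 10.5 and 30.7 CPM in young mice, against 38.7, 38.8 and 14.1 CPM in aged ones. The other marker-free cells held 110 ± 19.0 CPM (SD, n = 6) of it, above all 6 values. The summed replication list was 1.05 times that of the other marker-free cells, from 0.85 to 1.49 times by mouse. The list of E2F, RB, MuvB and FOXM1 genes summed to 1.14 times that of the other marker-free cells (0.95 to 1.31 by mouse). Of its 3 genes at 50 CPM, 1 was higher and 0 lower in 6 of 6 mice. E2f1, which drives entry into S phase and lay below 50 CPM, was lower in 6 of 6 mice (-0.90). Foxm1, which drives mitotic genes, was higher in 6 of 6 (2.03).

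**Figure D2:**
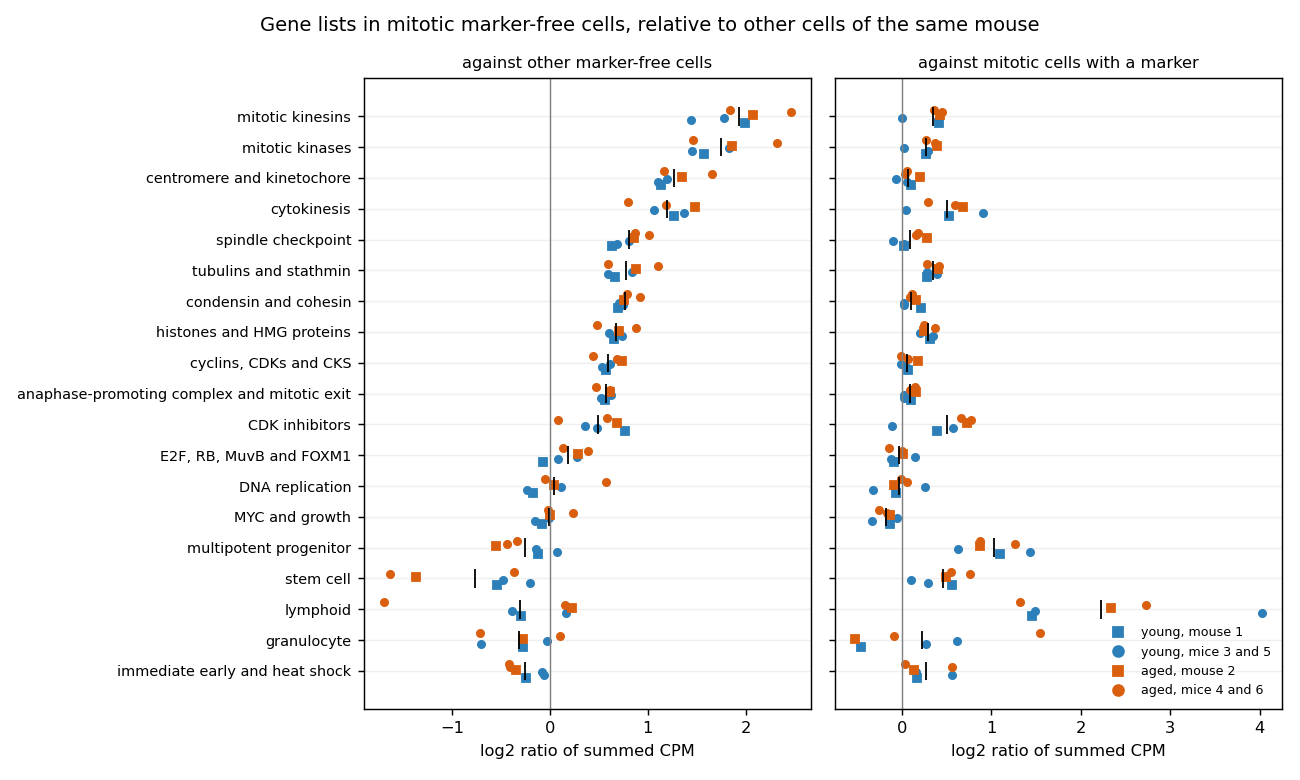
log2 ratio of summed CPM (horizontal axis) of 19 gene lists in mitotic marker-free cells, against other marker-free cells (left) and mitotic cells with a lineage marker (right) of the same mouse. Points are mice (blue young, orange aged, squares mice 1 and 2) and black bars means. Spindle and kinetochore lists lie right of 0 in every mouse on the left, the DNA replication list straddles 0, and multipotent progenitor genes lie on both sides of 0 on the left and right of 0 in every mouse on the right.

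Genes lower in mitotic marker-free cells were led by Gzmb, a granule protease, at 1.12 ± 2.47 CPM against 58.5 ± 57.0 CPM (SD, n = 6). A Gzmb UMI stood in 0.880% of these cells and in 2.18% of the other marker-free cells, so its ratio rests on few cells. Gzmb was followed by Ung, the class II chaperone Cd74 and the chemokines Ccl3 and Ccl4. Cd74 had a log2 ratio of -1.70 ± 1.53, from -4.17 to -0.17 by mouse, at means of 324 and 413 CPM. Ccl3 stood at -1.39 ± 0.87, and Ccl4 at -1.34 ± 1.89, where mouse 6 alone gave -5.16 and the other mice lay nearer 0. Cd63 and Ifitm1 lay at 216 and 382 CPM against 409 and 701 CPM. The remaining 3 of the 10 were Wfdc17, Shisa5 and Vat1, at ratios of -1.03 to -0.77.

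Against mitotic cells that did carry a lineage marker, the summed lists of mitotic genes ran from 1.04 to 1.45 times and that of multipotent progenitor genes was 2.07 times. The cyclin and CDK list was at 1.04, the centromere list at 1.05, kinases at 1.21, tubulins at 1.27, kinesins at 1.28 and cytokinesis genes at 1.45 times (1.03 to 1.88 in single mice) the level of the marked mitotic cells. Of the rule genes, Nusap1 had a log2 ratio of 0.70, higher in 6 of 6 mice. The median depth was 11694.0 UMIs in the marked mitotic cells and 8892.0 in the mitotic marker-free ones. Of 2731 genes, 13.8% were higher in 6 of 6 mice and 17% lower. All 5 multipotent progenitor genes at 50 CPM were higher in 6 of 6 mice, by log2 ratios of 2.68 for Myl10, 1.71 for the surface sialomucin Cd34, 1.10 for Ctla2a, 0.94 for the adhesion receptor Adgrg1 and 0.68 for the factor Lmo2. Dntt, the terminal transferase of lymphoid progenitors, had a ratio of 2.38. Cd34 lay at 403, 318 and 365 CPM in young mice, against 382, 331 and 198 CPM in aged ones, and at 109 ± 47.6 CPM (SD, n = 6) in marked mitotic cells. Of 8 erythroid genes at 50 CPM, 8 were lower in 6 of 6 mice, led by the carbonic anhydrase gene Car1 at 229 against 1319.8 CPM, and of 6 mast cell and basophil genes 4 were. These lineages are the ones whose genes the rule removes. The metallothioneins Mt1 and Mt2 were lower too (-1.78 and -2.54).

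Mitotic marker-free cells were not uniform along division. Within each mouse they were split into 3 groups of equal size by mitotic UMIs per 10000 UMIs, giving 191, 190 and 187 cells with medians of 10.1, 17.6 and 29.5, and of 10709.0, 8391.0 and 7081.0 UMIs per cell. The split uses the genes of the rule, so the values are a description. Ccnb1 went from 44.6 ± 21.2 CPM in the lowest group to 203 ± 74.7 CPM in the highest (SD, n = 6 mice), and Plk1 from 22.5 ± 16.8 to 130.5 ± 50.4 CPM. The cytokinesis list went from 442 ± 92.7 to 1360.5 ± 294 CPM. All 3 were higher in the highest group in 6 of 6 mice. Genes of DNA replication ran the other way, from 4595 ± 704 to 2767 ± 546 CPM, lower in 6 of 6 mice. Pcna, the sliding clamp of the fork, went from 171 ± 40.6 to 91.9 ± 29.1 CPM, and Mcm6 and Tyms were likewise lower in 6 of 6 mice. The MYC and growth list, nucleolar genes among them, went from 6953 ± 704 to 5282 ± 429 CPM, also in 6 of 6.

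Genes of blood cell types also differed along the split. The stem cell list was higher in the highest group in 6 of 6 mice, at 281 ± 100 CPM against 140 ± 39.6 CPM in the lowest (SD, n = 6). So were the megakaryocyte list, at 142 ± 57.6 against 57.9 ± 17.4 CPM, the erythroid list, at 1372 ± 995 against 907 ± 839 CPM, and the cytokine receptor gene Flt3, at 69.7 ± 39.4 against 32.1 ± 15.6 CPM. The granulocyte list was lower in 5 of 6 mice, at 4254 ± 885 against 8219 ± 3261 CPM. The role of depth, which differs between the groups as given above, was not tested.

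**Figure D3:**
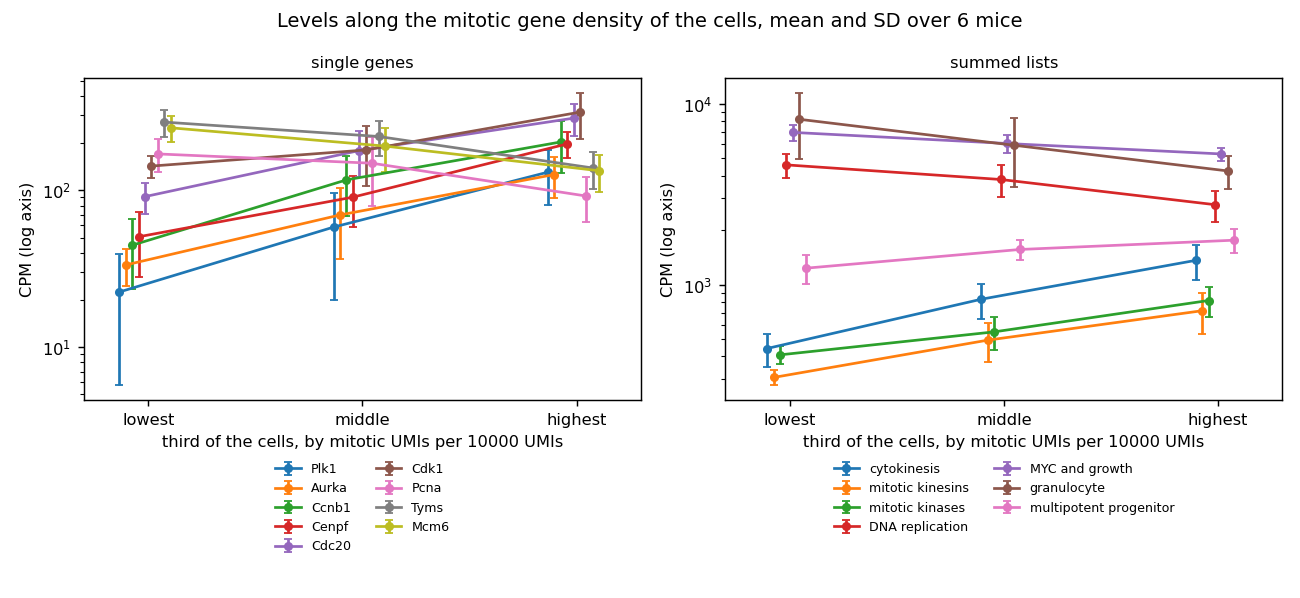
Mean CPM (vertical axis, log scale) with SD over 6 mice in 3 equal groups of the mitotic marker-free cells, ordered within each mouse by mitotic UMIs per 10000 UMIs. Left, single genes: mitotic genes climb and Pcna, Tyms and Mcm6 decline. Right, summed lists: cytokinesis climbs from 442 to 1360.5 CPM and DNA replication declines from 4595 to 2767 CPM.

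The 7 limits of the rule did not leave cells free of lineage genes. Of the 568 cells, 417 (73.4%) had 20 or more UMIs of 6 granulocyte genes, or 10 or more of the monocyte, erythroid, mast cell and basophil, or macrophage and dendritic cell genes. These cut-offs were set after the values were seen. The granulocyte genes accounted for 306 cells (53.9%), monocyte genes for 101 (17.8%), erythroid genes for 92 (16.2%), mast cell and basophil genes for 25 (4.40%) and macrophage and dendritic cell genes for 21 (3.70%), and 77 cells passed both of the first. By mouse the share with any of them was 73.9 ± 5.43% (SD, n = 6). Over all mice it was 58.8% in the other marker-free cells and 91.6% in marked mitotic cells. Median depths were 4275 and 11694 UMIs in these 2 classes. The cut-offs are raw counts, and the role of depth was not tested. RNA set free in the suspension gives some UMIs to any cell. In 538 cells with Klf1 and 50 or more erythroid UMIs, which should lack granulocyte genes, 1.30% passed the granulocyte cut-off. Their median was 5 granulocyte UMIs at 13970.0 UMIs per cell, against a median of 22 at 8892.0 UMIs in mitotic marker-free cells. Among 1298 cells with Cebpe and 50 or more granulocyte UMIs, 19.3% passed the mast cell and basophil cut-off, above the 4.40% of mitotic marker-free cells. Of these Cebpe cells 3.08% passed the monocyte cut-off, 1.77% the erythroid and 0.231% the macrophage and dendritic cell one. How many of the UMIs were free RNA was not tested.

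The granulocyte genes were the early ones. The azurophil granule genes Mpo, Prtn3, Ctsg and Elane were all present, with Mpo at 2501, 1295 and 2590 CPM in young mice, against 3012, 1788 and 1740 CPM in aged ones. Elane varied more, from 428 CPM in young mouse 3 to 1928 CPM in aged mouse 2. The late neutrophil genes Ltf, Camp and Ngp had no UMI in any of the 568 cells, and S100a8, S100a9 and Fcnb together with them summed to between 0 and 21.99 CPM in a mouse. The B cell genes Ebf1 and Ms4a1 and the mast cell protease gene Cma1 were also at 0. The rule takes no cell with a UMI of Cebpe or Ms4a2, so these zeros are a description. Other genes of the same lists were present. The B and plasma cell list summed to 84.7 to 884 CPM in a mouse, and the mast cell and basophil list to 103 to 396 CPM. The antibody heavy chain gene Ighm stood in 60.2% of the cells and the protease gene Mcpt8 in 33.1%. Whether these UMIs are the cells' own RNA or free RNA was not tested. In the other marker-free cells, under the same limits, the neutrophil list summed to 24.7 ± 28.9 CPM (SD, n = 6). Erythroid genes summed to 575 to 880 CPM in mice 1 to 5 and to 2554 CPM in mouse 6, whose 30 cells held 11 of the erythroid-rich ones. The adult globin gene Hba-a1 lay at 1.79 to 42.3 CPM.

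**Figure D4:**
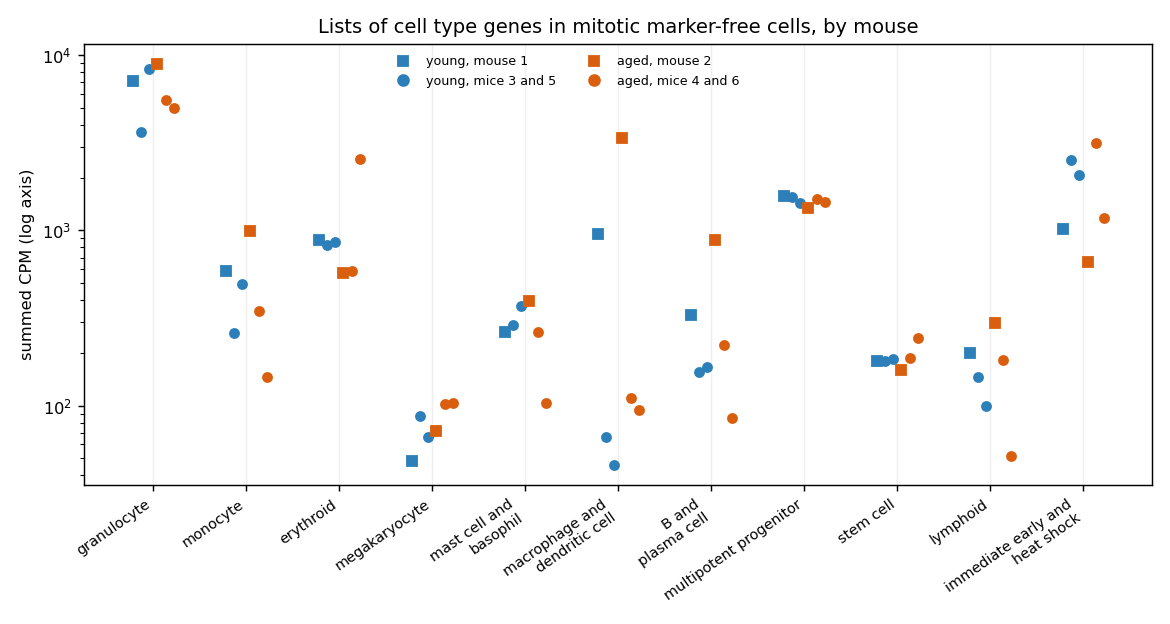
Summed CPM (vertical axis, log scale) of 11 gene lists in mitotic marker-free cells, 1 point a mouse (blue young, orange aged, squares mice 1 and 2). Multipotent progenitor genes lie close together at 1346 to 1581 CPM, macrophage and dendritic cell genes set mice 1 and 2 apart, and erythroid genes set mouse 6 apart.

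Igkc, the antibody light chain gene, stood in 371 of 568 cells with at most 45 UMIs, and its limit of 100 removed 3 mitotic cells. After thinning each cell to 4000 UMIs, 49.7% of 513 mitotic marker-free cells had an Igkc UMI (95% Wilson interval 45.4 to 54.0%). The share was 44.5% in the Klf1 cells and 53.7% in 1171 cells with Cebpe and 50 or more granulocyte UMIs, and unthinned 65.3%, 69.0% and 70.1%. These shares pool mice whose Igkc levels differ widely, and whether the UMIs are the cells' own RNA or free RNA was not tested. The thinned share of Cd34 was 70.4% (66.3 to 74.2%) in mitotic marker-free cells and 4.51% in the Klf1 cells (83.6% and 12.1% unthinned), and it was 45.8% in the Cebpe cells and 66.6% in the other marker-free cells. Flt3 stood at 14.6% against 0.376%, the stem cell factor genes Meis1 and Hlf at 18.7% and 7.80% against 1.88% and 0.376%, and the stem cell receptor gene Procr at 2.14% (1.20 to 3.80%) against 0.188%, these last all against the Klf1 cells. In the other marker-free cells Flt3 stood at 15.9%, Meis1 at 23.3%, Hlf at 12.7% and Procr at 6.77%. Of the 568 cells, 55 were below 4000 UMIs and were left out of these shares, as were 6 of the 538 Klf1 cells. Intervals cover counting error only.

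The 151 cells below all of the lineage cut-offs numbered 39, 23 and 13 in young mice 1, 3 and 5 and 29, 40 and 7 in aged mice 2, 4 and 6. Their multipotent progenitor genes summed to 2136 ± 197 CPM, against 1320 ± 91.6 CPM in the lineage-rich cells (SD, n = 6), and their stem cell genes to 311 ± 56.2 against 160 ± 29.3 CPM. Both were higher in 6 of 6 mice. Hlf lay at 45.1 ± 12.5 against 13.3 ± 2.05 CPM and Ctla2a at 445 ± 136 against 207 ± 57.7 CPM, each in 6 of 6. Of the genes of the rule, Top2a was higher in 6 of 6 mice, at 520 ± 175 against 359 ± 82.1 CPM. Mki67 was at 160 ± 41.9 against 152 ± 27.7 CPM and higher in 4 of 6. The 8 mitotic genes of the rule summed to 2148 ± 306 against 1727 ± 225 CPM, higher in 6 of 6. The 151 cells were shallower, at a median of 7081 against 9633 UMIs. The rule and the cut-offs are raw counts, so these levels are a description, and the role of depth was not tested.

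The first question between ages was whether mitotic marker-free cells made up another share of LK cells in aged mice. Among LK cells their share was 7.84%, 4.44% and 7.43% in young mice 1, 3 and 5, against 7.11%, 7.76% and 4.41% in aged mice 2, 4 and 6. The mean was 6.57 ± 1.86% in young and 6.43 ± 1.78% in aged mice (SD, n = 3 each), and the ages overlapped (two-sided exact permutation test, p = 0.7, smallest possible 0.1). Of marker-free cells they were 20.8%, 8.32% and 18.9% in young and 17.1%, 16.5% and 8.24% in aged mice, or 16.02 ± 6.73% against 14.0 ± 4.97% (exact permutation test, p = 0.5). At this raw threshold mouse 3 and mouse 6 were low in both shares, 1 of each age. The 95% Wilson interval of a single share of LK cells ran from 3.51 to 5.59% in young mouse 3 and from 6.64 to 9.23% in young mouse 1, and the intervals of aged mice 4 and 6 were likewise apart. Without mouse 6 the difference turned from -0.14 to 0.87 percentage points of LK cells. With 10 or more mitotic UMIs per 10000 UMIs in place of the raw threshold, mouse 3 had 10.4% of LK cells, the highest of the 6. Mouse 6 then had 10.1%, and mouse 4 had the lowest share, 6.72%. In cells thinned to 4000 UMIs, with 4 or more mitotic UMIs required, the shares lay at 11.1 to 14.6%.

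The second question was which genes differed with age within these cells. By edgeR's quasi-likelihood test on counts summed per mouse, 0 of 6514 genes (0%) passed an adjusted p of 0.05, 140 had an unadjusted p below it, and DESeq2 gave 0 and 37. Every aged value lay above every young one for 335 genes (5.14%) and below for 112 (1.72%).

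Of the genes at a mean of 20 CPM or more, none of which passed, the smallest p belonged to Mrpl23, a gene of the mitochondrial ribosome. It lay at 63.7, 61.2 and 52.1 CPM in young mice, against 32.5, 27.4 and 14.1 CPM in aged ones, a log2 difference of -1.15 ± 0.25 (SE, edgeR adjusted p = 1.00). All 3 aged mice were below all 3 young ones. The co-chaperone gene Dnajc7 lay at 65.6, 54.2 and 62.8 CPM in young mice, against 103, 98.5 and 94.1 CPM in aged ones, at 0.65 ± 0.17 (edgeR adjusted p = 1.00), with the ages apart in the other direction. Among the 10 genes of smallest p at that level, 5 in each direction, were also Dkkl1 (1.24 ± 0.39), Gm42418 (0.69 ± 0.18), Dmac1 (-0.54 ± 0.16) and Fopnl (-0.82 ± 0.22), and all 10 had the ages apart. Gm42418 overlaps ribosomal RNA sequence in the mouse annotation, so its reads may not be its own.

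Igkc and Hist1h2ap had large differences with wide errors. Igkc lay at 206, 8.74 and 10.7 CPM in young mice, against 1947, 178 and 89.4 CPM in aged ones, a log2 difference of 3.15 ± 1.09 (SE, edgeR adjusted p = 1.00). Mouse 1 was high among the young and mouse 2 far above all others, and the ages overlapped. Among mice 3 to 6 alone Igkc passed at 3.86 ± 0.40 (edgeR adjusted p = 0.000292), and with a term for mice 1 and 2 at 3.40 ± 0.25 (edgeR adjusted p = 9.1e-07). Igkc is a gene of the rule, whose limit removed 3 mitotic cells, so its values are a description. The setting of mice 3 to 6 alone was chosen after seeing the data. The shares of cells with an Igkc UMI are given above. Hist1h2ap lay at 2289, 2977 and 621 CPM in young mice, against 1258, 674 and 626 CPM in aged ones (-1.30 ± 0.47). Young mouse 5 was the lowest of all, so here too the ages overlapped.

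By list, none of the tested members passed in either direction. The DNA replication list had a median log2 difference of 0.19 over 34 tested genes. Of these 34 genes, 3 were apart and higher in aged mice, beside 335 of all 6514 tested genes (5.14%). Hells, a chromatin remodeller, had one of the larger differences at 0.80 ± 0.28 (SE), and its ages overlapped at 37.6, 28.0 and 56.7 CPM in young against 53.4, 88.3 and 75.3 CPM in aged mice. Spindle kinesins had a median of 0.19 over 10 genes, spindle checkpoint genes 0.20 over 9, the centromere list 0.01 over 17, histones -0.05 over 17 and multipotent progenitor genes 0.04 over 7. The median over all genes was -0.00. The granulocyte list stood at -0.02 over 6 genes, and the erythroid list at -0.47 over 9.

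Whether age acted differently in mitotic and in other marker-free cells was tested as an interaction with the mouse as a block. Of 9099 genes 0 (0%) passed by edgeR, 488 had an unadjusted p below 0.05, and DESeq2 gave 0 and 89. The call rested on mouse 6, since without it 15 of 9591 genes passed. Of these, 7 had a more positive age difference in mitotic marker-free cells. The eosinophil gene Prg2 (1.86 ± 0.41, SE), the monocyte list gene Ctss (1.37 ± 0.29) and the passenger protein gene Incenp (1.07 ± 0.24) had the largest. Birc5 (0.81 ± 0.18), the replication factor Pclaf (0.73 ± 0.15), Fcer1g (0.70 ± 0.14) and the tubulin gene Tubb5 (0.44 ± 0.10) were the others. Birc5 is a gene of the rule, so its value is a description. Among the 8 that went the other way were Ctla2a (-0.66 ± 0.14) and the nuclear RNA Malat1 (-0.39 ± 0.07). Without mouse 2, Cd74 alone passed. Age alone gave 0 of 9822 genes in the other marker-free cells and 0 of 9077 in mitotic cells with a marker by edgeR, with 552 and 139 at an unadjusted p below 0.05.

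**Figure D5:**
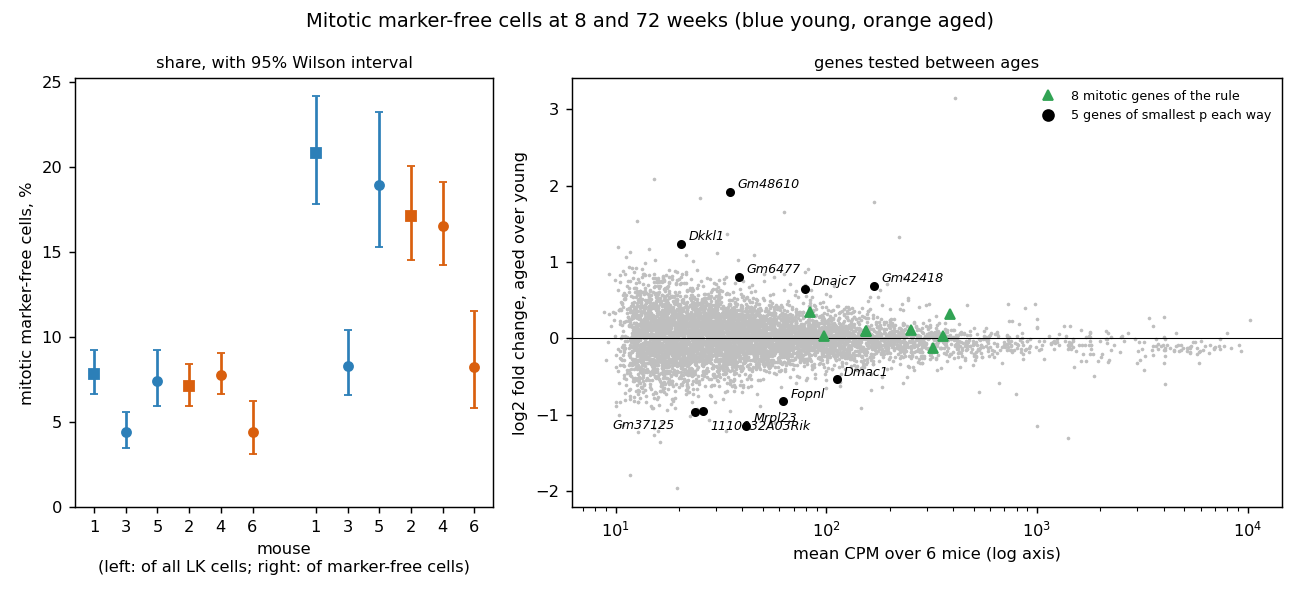
Left, share of mitotic marker-free cells in percent (vertical axis, from 0) for each mouse, of LK cells and of marker-free cells, with 95% Wilson intervals (blue young, orange aged, squares mice 1 and 2). Right, log2 fold change of aged over young (vertical axis) against mean CPM over 6 mice (log axis) for the 6514 genes tested, with the 8 genes of the rule as green triangles as a description and the 10 genes of smallest p at 20 CPM or more in black. The shares of the ages overlap, and none of the black genes passed.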

How the data were processed

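Single LK cells of 3 young and 3 aged mice were profiled by droplet 3′ sequencing, 1 library a mouse. The authors deposited raw UMI counts per gene and cell for 8436 filtered cells and 17757 genes, and their processing notes name Cell Ranger 3.0.2 and Seurat 3. Cells were assigned to mice by barcode suffix. Libraries held 3628043 to 17585424 UMIs. The long-read table and its annotation were not used here.

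Counts of mitotic marker-free cells were summed per mouse and tested by age with edgeR 4.0.16 (quasi-likelihood, filterByExpr, TMM, Benjamini-Hochberg, threshold 0.05), and the interaction with class was fitted with the mouse as a block. DESeq2 1.42.0 was an alternative, as were other thresholds, limits, filters and left-out mice. Shares were compared by exact permutation over mice. No doublet caller was run, and leaving out the 5% of cells with the most UMIs was an alternative. Scripts were tested on simulated data. Separate mice are biological replicates.

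The members and the 32 gene lists were chosen with earlier results of these data known. Genes were named as those of the rule, the most abundant 4 tested of each list and markers at 0, the 5 of smallest p in each direction between ages at a mean of 20 CPM or more, and the 10 of largest and smallest ratio against each other class at 50 CPM. Other list members were named after their values were seen. A gene that this rule would name is not reported here.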

Additional observations from a re-analysis of the deposited data

How the results depend on the processing

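With 3 mice an age, no exact test could go below p = 0.1, and with mice 3 to 6 alone not below 0.333. No paired analysis was possible because the mice of the 2 ages share no replicate numbers. The aged minus young difference in the share of LK cells, -0.14 percentage points, reversed to 0.63 with 12 or more mitotic UMIs (exact p = 0.7) and to 0.15 with mice 3 to 6 alone, and ranged from -1.21 to 0.87 as single mice were left out, turning positive without mouse 1 (0.49), 5 (0.29) or 6 (0.87). The difference in the share of marker-free cells, -2.05 points, reversed to 0.43 with 12 or more mitotic UMIs and ranged from -5.90 to 0.81, positive without mouse 1 (0.34) or mouse 6 (0.81). Stricter lineage limits, with no UMI of Pf4 and fewer than 10 of Igkc, gave -2.21 points of LK cells (exact p = 0.2). Under them mouse 2, which had the highest Igkc level, stood at 1.24%, against 7.11% under the main limits. The causes were not tested. The count of genes called between ages by edgeR, 0, became 25 without a filter on low counts (18 higher and 7 lower in aged mice, Mrpl23 at -1.15 and Gm48610 at 1.93 among them), 2 with a term for mice 1 and 2 (Igkc and H2-Aa), 1 with mice 3 to 6 alone (Igkc) and 1 of 2238 without the lineage-rich cells (Lgals1, lower), and stayed at 0 to 0 as single mice were left out. The count for the interaction, 0, became 2 without a filter (Gng11 and Ptgs1) and ranged from 0 to 15 as mice were left out, with 1 (Cd74) without mouse 2 and 15 without mouse 6. Leaving out mice 1 and 2, cells with macrophage and dendritic cell genes, or lineage-rich cells was chosen after seeing the data. Igkc is a gene of the rule, so its calls are a description. The other 45 values of these 4 results, and 181 of 183 for single genes, kept their direction and their side of the threshold. Mouse 6, with 30 cells, limits the depth.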
